A study of Homo sapiens with 6 samples.

Results

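The cytosolic ribosomal proteins are the protein building blocks of the ribosomes that translate nuclear-encoded mRNA. They were taken as the genes whose symbol is RPL or RPS followed by a number, with or without a closing A, X or L, plus RPSA, RPLP0, RPLP1 and RPLP2. Pseudogenes and the RPS6K kinases were left out. The rule gave 82 genes of 19876 in the table, 50 of the large subunit and 32 of the small subunit, and all 82 matched a RefSeq protein-coding gene. They were measured by RNA sequencing of total RNA from A549, an established human lung adenocarcinoma cell line whose genotype is labelled WT. The study set 3 libraries of cells given PBS, a buffer used as the negative control, against 3 libraries of cells given rhTR11B, to see how gene expression in A549 cells differs with TR11B supplied from outside. No dose or time is given in the sources used here, and the labels do not spell out rhTR11B. The libraries are called biological replicates, but nothing says that they came from separate cultures, so p-values measure only the spread between these libraries.

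A ribosome has a small subunit, which binds the mRNA and reads its codons, and a large subunit, which joins amino acids into a chain. Ribosomal proteins are made in near equal numbers, carried to the nucleolus and built onto ribosomal RNA, and single copies that find no partner are degraded. Most of their mRNAs begin with a C followed by a run of pyrimidines (C or T in DNA letters), the 5′ terminal oligopyrimidine or TOP motif, through which the kinase complex mTORC1 and the RNA-binding protein LARP1 govern their translation and stability.

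The start of each gene was read from RefSeq promoter windows on build GRCh38.p14, which matched 66 of the 82 genes. The windows below run 5′ to 3′ on the gene's own strand, from 10 bases before the annotated start to 15 bases from it. Capitals mark the unbroken run of C and T that begins with C at the start itself. The first 7 are shown because the gene fell with rhTR11B (values below) and its start carries the motif, as RPS27A's also did.
RPS12: cggatgaggcCTCTTTCCCTgccgc
RPS14: ccctcccactCTCTCTTTCCggtgt
RPS23: cggtgcttctCTCTTTCgctcaggc
RPL7A: attccctttcCTTTCTCTCTCCTCC
RPL21: ccgcctctttCCTTTCggccggaac
RPL35: cgcctacttcCTCTTTCCCTCggag
RPL38: aagtctcgttCTTTTTCgtcctttt
The windows lie at chr6:132814559-132814583 on the plus strand (RPS12), chr5:150449725-150449749 on the minus strand (RPS14), chr5:82278340-82278364 on the minus strand (RPS23), chr9:133348208-133348232 on the plus strand (RPL7A), chr13:27251548-27251572 on the plus strand (RPL21), chr9:124861943-124861967 on the minus strand (RPL35) and chr17:74203668-74203692 on the plus strand (RPL38). RPS26 and RPS28 also fell, and their annotated starts do not open with such a run, as the lower-case windows show.
RPS26: acataacctcgattttcttccgcca
RPS28: gaagcacgtgactcctctccgccag
These lie at chr12:56041908-56041932 on the plus strand (RPS26) and chr19:8321486-8321510 on the plus strand (RPS28). The starts of RPL9, RPS15 and RPS27L, which also fell, did not open with the run either. In all, 8 of the 13 matched genes that fell carried it (61.5%), against 39 of the 53 other matched genes of the family (73.6%). In RPS28 a run begins within 5 bases of the annotated start. An annotated start can lie some bases from the start used in A549 cells, so a missing run says only that these letters are not at this position.

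A C followed by at least 4 more C or T at the annotated start was found in 47 of the 66 matched genes, or 71.2%. Among all 10719 matched genes that were tested, 777 carried it, or 7.25%. On the opposite strand the same search found 0 of the 66 and 2.45% of all matched genes. Within 5 bases of the annotated start, the run was present in 54 of the 66 (81.8%) and in 29.2% of all matched genes. Carrying the run did not go with a different change among the ribosomal proteins. The median log2 fold change of rhTR11B over PBS was -0.21 for the 47 with the run and -0.21 for the 19 without it. Among all tested genes it was -0.03 for the 777 with the run and -0.00 for the 9942 without it. Next, the whole promoter window of the RefSeq table was searched on both strands. A gene was counted if the window of any of its annotated starts held the letters. CCGGAAG, the core of the site for ETS-family factors such as GABPA, occurred in 36.4% of the matched ribosomal protein genes and 22.6% of all matched tested genes. GGGCGG, the core bound by SP1, occurred in 57.6% against 76.9%. The letters TATAAA, known as the core promoter element bound by TBP, occurred in 9.09% against 8.04%. AAGATGGC, the core bound by YY1, occurred in 10.6% against 6.44%. The CGCG element bound by BANP, a palindrome of 10 bases, occurred in 6.06% against 1.01%. These matches describe letters, not sites known to be bound.

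Each library held between 36315751 and 38148838 counts. Of the 7 A549 and lung epithelial markers used to check the labelled cell type, only the 3 keratins KRT8, KRT18 and KRT7 were well expressed. KRT8 ranged from 868 to 960 CPM (counts scaled to a fixed library total, here with no further correction) over the 6 libraries, KRT18 from 639 to 707 and KRT7 from 345 to 392, while KRT19, EPCAM, CDH1 and NAPSA stayed at or below 0.511 CPM. The 6 fibroblast markers in the table summed to 2.79 to 3.71 CPM with PBS and 4.27 to 6.54 CPM with rhTR11B, most of it COL1A1, and their part in the results was not tested. The 3 endothelial markers summed to at most 0.421 CPM and the 2 blood markers to at most 0.578 CPM. The share of counts on the 13 mitochondrially encoded protein genes was 7.71, 6.63 and 7.31% with PBS and 8.75, 7.88 and 10.4% with rhTR11B. The library of rhTR11B replicate 3 stood apart from the others, with the highest mitochondrial share and, as given below, the lowest ribosomal protein level.

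Ribosomal protein mRNAs were among the most abundant of the cells. Per unit of length, as FPKM (fragments scaled by library total and by the length given to each gene), the median level of the 82 was 440, against 6.17 for all tested genes. RPS2, at the mRNA entry channel of the small subunit, had the highest level, 2098 ± 88.2 FPKM with PBS (SD, n = 3). RPS18, in the head of the small subunit, followed at 1880 ± 1.73, then RPL41, among the smallest proteins of the cell, at 1776 ± 23.4, RPL7A at 1390 ± 21.3 and RPL13A at 1288 ± 39.4. With PBS, each step in this order was larger than the SDs of the genes on both sides of it. With rhTR11B the same 5 genes stood at 1785 ± 210, 1597 ± 148, 1560.02 ± 145, 1162 ± 100 and 1112 ± 115 FPKM, where RPS2, RPS18 and RPL41 lay within their neighbours' spread, as did RPL7A and RPL13A. The order rests on the lengths given to the genes. RPL13, at 4726 bases, was at 322 FPKM with PBS, while RPL41 has a length of 676 bases. In CPM, scaled as for the single genes below, RPL13 was at 1513 and RPL41 at 1194 with PBS. At the low end of FPKM with PBS were RPL17 (30.8), RPL26L1 (16.9), RPS10 (7.38), RPL22L1 (6.83), RPS27L (4.04), RPL39L (1.39) and RPL36A (0.557). RPL17, RPS10 and RPL36A encode standard parts of the ribosome and share their locus or name with read-through transcripts, and most ribosomal protein genes have processed pseudogenes. How reads that fit several such copies were counted, and whether strand was used, is not given in the sources used here, so low levels of these genes are uncertain.

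Nearly every ribosomal protein mRNA was lower in the cells given rhTR11B, each by a small and similar amount. The median log2 fold change was -0.21, which is 13.8% lower, against 0.00 for all 13567 tested genes, and 81 of the 82 values were below 0, as were 50% of all tested genes. With p-values from edgeR's quasi-likelihood fit, adjusted by Benjamini-Hochberg over all tested genes, 14 of the 82 fell at an adjusted p under 0.05 and 0 rose. The background was 0.678% of all tested genes called lower and 2.92% called higher. At an adjusted p under 0.1, 66 of the 82 were lower against a background of 4.1%, and at an unadjusted p under 0.05, 79 were lower against 10.3%. None was higher at an unadjusted p under 0.05, against 13.8% of all tested genes, and DESeq2 and limma-voom also called 0 higher. For 79 of the 82, every rhTR11B library lay below every PBS library, which held for 14% of all tested genes. RPS10, RPL35A and RPL36A were the exceptions. In RNA from whole cultures, fewer cells of a kind and less RNA per cell cannot be told apart.

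By library, the median of the 82 genes relative to their PBS mean was -0.02, 0.00 and 0.02 (log2) with PBS and -0.14, -0.16 and -0.36 with rhTR11B. The groups did not overlap, and rhTR11B replicate 3 lay farther from its partners than these did from PBS. In that library 80 of the 82 genes had their lowest value of the 6 libraries. The lower level was not confined to it: 82, 81 and 81 of the 82 genes were below the PBS mean in rhTR11B replicates 1, 2 and 3. In PBS replicates 1, 2 and 3 the same count was 67, 35 and 15. The genes of 1 library move together, so these counts are not separate observations. Without rhTR11B replicate 3 the median was -0.15, 81 genes were below 0, and 19 genes fell at an adjusted p under 0.05, among them 13 of the 14. Of all tested genes, 0.626% were then called lower. The mitochondrial share moved with the ribosomal protein level in the opposite direction, and its part in the result was not tested. With library scaling computed without the ribosomal proteins and the mitochondrially encoded genes, the median was again -0.21 and 13 genes fell, against 0.649% of all tested genes.

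**Figure D1:**
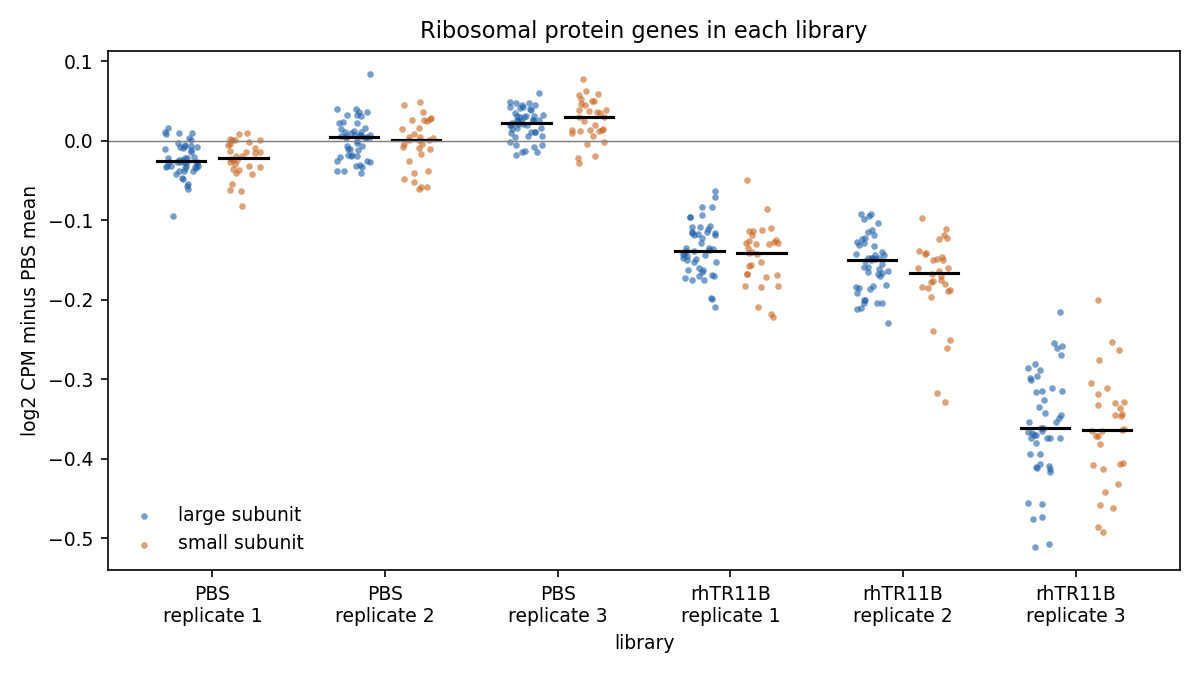
Log2 level of each cytosolic ribosomal protein gene relative to its PBS mean (vertical axis) in each of the 6 libraries (horizontal axis), with 1 point per gene and a line at the median of each subunit. The points of RPL39L, RPL36A and RPS10 are left out of the drawing for their wide scatter, but count in the medians, which run from -0.03 to 0.03 with PBS and from -0.36 to -0.14 with rhTR11B.

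The number of genes past the threshold depended strongly on single libraries, while the direction did not. It was 1 without PBS replicate 1, 0 without PBS replicate 2, 0 without PBS replicate 3, 58 without rhTR11B replicate 1, 9 without rhTR11B replicate 2 and 19 without rhTR11B replicate 3. The share of all tested genes called lower moved as well. In the same order it was 0.196, 0.0363, 0.0218, 3.1, 0.342 and 0.626%. The smallest adjusted p in the family was 0.137 without PBS replicate 2 and 0.151 without PBS replicate 3 (edgeR), and 76 and 65 of its genes were then lower at an unadjusted p under 0.05. The share of all tested genes at that unadjusted threshold was not computed for these fits. In these 6 fits 81 or 82 of the 82 genes were below 0. RPS26 was the gene that still fell without PBS replicate 1, at an adjusted p of 0.0442 by edgeR.

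Of the 32 small subunit genes, 9 fell. Their levels, and those of the genes after them, are in CPM on library sizes corrected by TMM, edgeR's scaling between libraries. RPS26, which sits at the mRNA exit channel, was at 296, 301 and 313 CPM in the PBS libraries and 261, 253 and 240.3 in the rhTR11B libraries. It had the smallest adjusted p of the family and was lowest in rhTR11B replicate 3 (a log2 fold change of -0.27, SE 0.06, edgeR adjusted p = 0.0213). RPS28, its neighbour at the exit channel, was at 172, 176 and 170.5 CPM in the PBS libraries and 157, 138 and 136 in the rhTR11B libraries (a log2 fold change of -0.27, SE 0.06, edgeR adjusted p = 0.0299). Its values in rhTR11B replicates 2 and 3 were nearly equal, and the highest rhTR11B library was still below the lowest PBS library.

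RPS12, a protein of the small subunit's head, was at 625, 620.1 and 620.1 CPM in the PBS libraries and 548, 527 and 444 in the rhTR11B libraries (a log2 fold change of -0.30, SE 0.07, edgeR adjusted p = 0.0327). Its PBS libraries lay close together, and it had the most negative log2 fold change among the called genes except RPS27L. RPS23, which lies at the decoding centre where codons are read, was at 506, 538 and 541 CPM in the PBS libraries and 483, 444 and 383 in the rhTR11B libraries (a log2 fold change of -0.27, SE 0.07, edgeR adjusted p = 0.0472). It was lowest in rhTR11B replicate 3, and all 3 rhTR11B libraries lay below the PBS libraries.

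RPS14, a protein of the small subunit's platform whose loss causes the anaemia of 5q- syndrome, was at 669.5, 723 and 706 CPM in the PBS libraries and 616, 610.1 and 518 in the rhTR11B libraries (a log2 fold change of -0.27, SE 0.07, edgeR adjusted p = 0.0435). RPS15, in the head, was at 684, 665 and 702 CPM in the PBS libraries and 607, 599 and 544 in the rhTR11B libraries (a log2 fold change of -0.23, SE 0.06, edgeR adjusted p = 0.0487). The groups were apart for both, and RPS15 had the smallest change of the called genes. RPS27A, made as a fusion with ubiquitin that is cut off to free both proteins, was at 574, 594 and 571 CPM in the PBS libraries and 516, 509 and 412 in the rhTR11B libraries (a log2 fold change of -0.28, SE 0.07, edgeR adjusted p = 0.0483). RPS27L, a paralog of RPS27 induced by p53, was far less abundant, at 24.3, 24.8 and 24.5 CPM in the PBS libraries and 21.2, 19.7 and 18.4 in the rhTR11B libraries (a log2 fold change of -0.31, SE 0.08, edgeR adjusted p = 0.0370). Without rhTR11B replicate 3 it no longer passed: the RPS27L log2 fold change was then -0.26, at an edgeR adjusted p of 0.0643.

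Of the 50 large subunit genes, 5 fell. RPL9 was at 245, 255 and 246 CPM in the PBS libraries and 217, 215 and 181 in the rhTR11B libraries (a log2 fold change of -0.28, SE 0.07, edgeR adjusted p = 0.0321). RPL38, which in mouse embryos is needed for translation of a set of Hox mRNAs, was at 255, 252 and 252 CPM in the PBS libraries and 220.5, 219.8 and 190.3 in the rhTR11B libraries (a log2 fold change of -0.27, SE 0.06, edgeR adjusted p = 0.0313). These were the large subunit genes with the smallest adjusted p, and in both the 3 PBS libraries lay close together.

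RPL35, at the exit of the tunnel through which the new protein leaves, was at 524, 511 and 539 CPM in the PBS libraries and 465, 453 and 393 in the rhTR11B libraries (a log2 fold change of -0.26, SE 0.07, edgeR adjusted p = 0.0387). RPL21 was at 376, 385 and 388 CPM in the PBS libraries and 343, 333 and 269 in the rhTR11B libraries (a log2 fold change of -0.28, SE 0.08, edgeR adjusted p = 0.0474). RPL7A, the most abundant per length of the called genes, was at 1206, 1221 and 1252 CPM in the PBS libraries and 1086, 1078 and 946 in the rhTR11B libraries (a log2 fold change of -0.24, SE 0.07, edgeR adjusted p = 0.0496). RPL7A lay just inside the threshold, and RPL34, RPL12 and RPL37A lay just outside it, at edgeR adjusted p = 0.0505, 0.0516 and 0.0518.

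**Figure D2:**
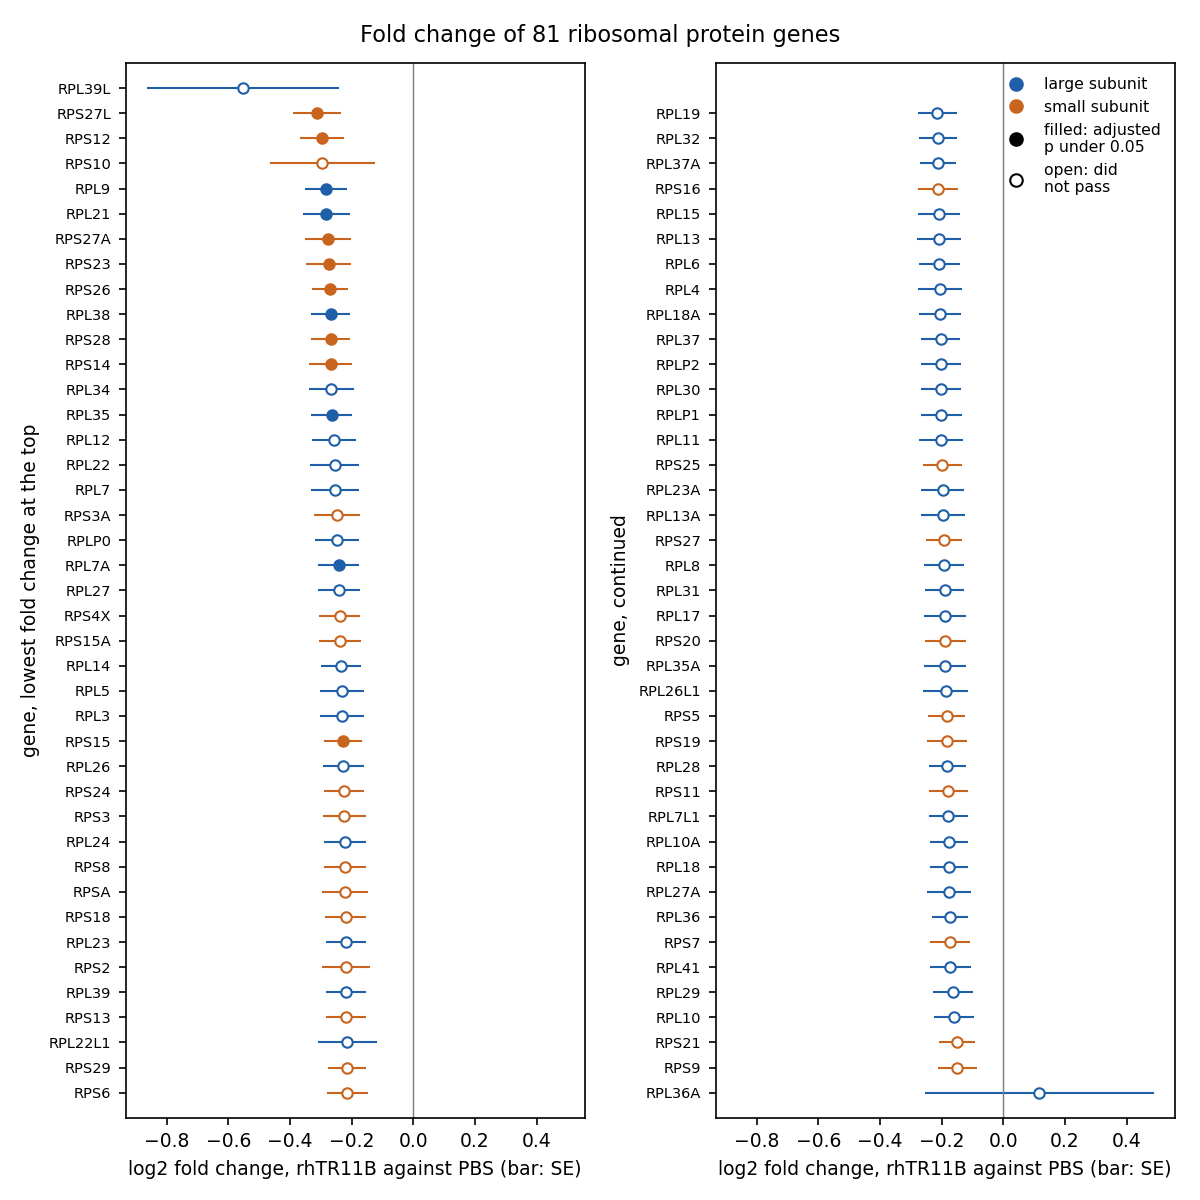
Log2 fold change of rhTR11B over PBS (edgeR) with its standard error for 81 of the 82 cytosolic ribosomal protein genes, ordered from the lowest value, in blue for the large and orange for the small subunit. All but RPL36A lie below 0, and the 13 filled points, genes at an adjusted p under 0.05, lie between -0.31 and -0.23.

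The family was narrow in its change. Of the 82 values, 79 lay between -0.30 and -0.14, with an SD over all genes of 0.064 and an interquartile range of 0.051, against 0.25 for all tested genes. The 3 outside were RPL39L, RPS27L and RPL36A. All tested genes had a median level of 6.17 FPKM against 440 for the family, and no comparison was made with genes of a like level. For the 75 genes of the family with a mean of at least 4000 counts, the SD was 0.0351. The median standard error of 1 gene, over all 82, was 0.0670. That error includes spread between libraries that the genes share, so the comparison cannot tell whether single genes differ. Over these 75 genes, which share the same 6 libraries, the change had a Spearman's rho of -0.0379 with the level in FPKM and 0.0672 with length. The lengths behind the FPKM had a median of 1129 bases in the family against 3981 for all tested genes. They are 1 value per gene, up to 7573 bases in the family, and need not be those of the mRNAs made in these cells. The 11091 tested genes no longer than the longest of the family had a median log2 fold change of -0.01.

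RPL39L, a paralog of RPL39 known for its part in the testis, had the most negative value, but on few reads: 38, 41 and 36 counts in the PBS libraries and 18, 24 and 33 in the rhTR11B libraries (a log2 fold change of -0.55, SE 0.31, edgeR adjusted p = 0.289). Its rhTR11B replicate 3 lay close to PBS, unlike most of the family. RPS10, at the mRNA entry side, was at 5.16, 5.53 and 7.45 CPM in the PBS libraries and 5.41, 5.66 and 3.70 in the rhTR11B libraries (a log2 fold change of -0.30, SE 0.17, edgeR adjusted p = 0.298), and its groups overlapped. RPL36A, with 16, 18 and 14 counts in the PBS libraries and 15, 20 and 15 in the rhTR11B libraries, was the single gene above 0 (a log2 fold change of 0.12, SE 0.37, edgeR adjusted p = 0.883), at a depth that cannot show a change of the family's size.

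Among the abundant genes the values nearest 0 were those of RPS9 (-0.15, edgeR adjusted p = 0.156), RPS21 (-0.15, 0.127), RPL10 (-0.16, 0.147) and RPL29 (-0.16, 0.139). RPL10 completes the large subunit late in its assembly. All 4 had every rhTR11B library below every PBS library. RPL35A was at 249, 282 and 268 CPM in the PBS libraries and 249, 239.9 and 212 in the rhTR11B libraries, so that rhTR11B replicate 1 overlapped with PBS replicate 1.

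The large and the small subunit moved alike. The median log2 fold change was -0.21 for the 50 large subunit genes, of which 49 were below 0, and -0.22 for the 32 small subunit genes, all below 0. Together the 82 genes took 5.00, 5.10 and 5.15% of the counts with PBS and 4.57, 4.57 and 3.85% with rhTR11B. The groups did not overlap, and their means were 5.08 ± 0.0790% and 4.33 ± 0.412% (SD, n = 3). The large subunit's share went from 3.12 ± 0.0475% to 2.67 ± 0.252% and the small subunit's from 1.96 ± 0.0318% to 1.66 ± 0.160%. The ratio of large to small subunit counts was 1.588, 1.593 and 1.583 with PBS and 1.599, 1.602 and 1.605 with rhTR11B. The groups of ratios did not overlap, at means of 1.588 ± 0.00497 and 1.602 ± 0.00312, and their difference was far smaller than that of either share. No test was made of the shares or the ratio, since the genes were chosen with results known.

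**Figure D3:**
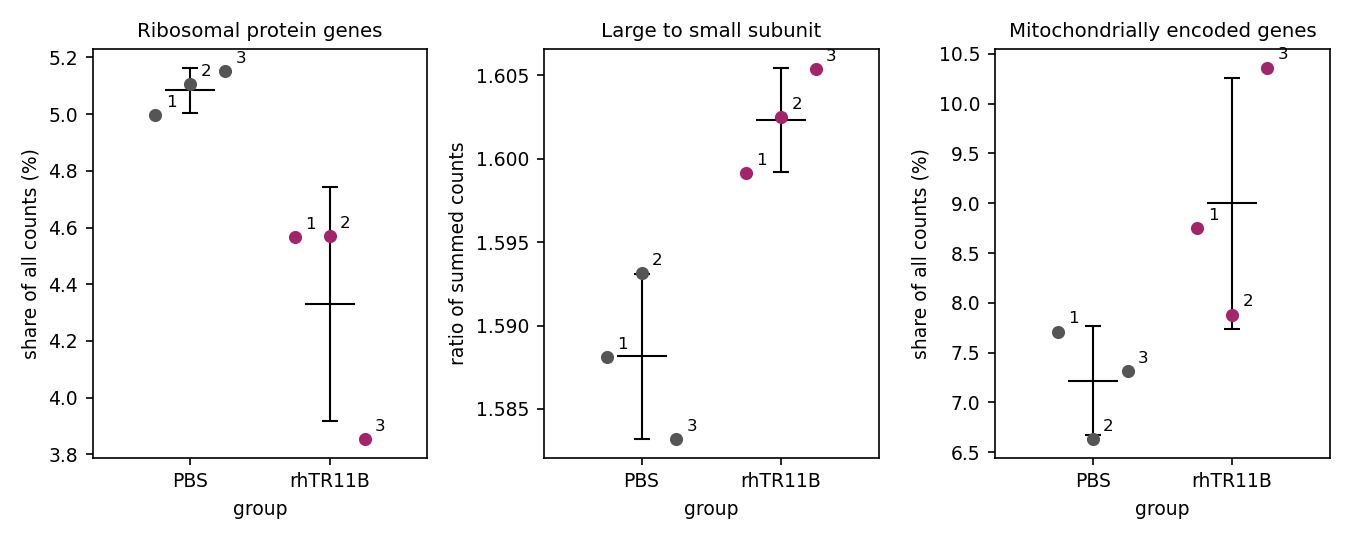
Percent of all counts on the 82 ribosomal protein genes (left), ratio of large to small subunit counts (middle) and percent of counts on the 13 mitochondrially encoded genes (right), with 1 point per library labelled by its replicate number and the mean and SD of each group of 3. The vertical axes do not start at 0. In every rhTR11B library the ribosomal share is lower, and the ratio and the mitochondrial share higher, than in any PBS library.

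To look within the family, each gene was also compared with the sum of all 82, in an edgeR fit scaled by that sum and chosen after seeing the data. In this fit 0 of the 82 genes passed an adjusted p under 0.05, 0 passed an unadjusted p under 0.05, and the smallest adjusted p was 0.290. limma-voom, on the same scaling, also gave 0 and 0. The edgeR fit takes its spread from all tested genes, most of which do not follow this scaling. Its median standard error was 0.0595, close to the largest changes of the abundant genes. It could therefore hardly detect changes of that size, and 0 calls do not show that single genes moved alike. Genes with a mean of at least 4000 counts lay between -0.08 for RPS12 and 0.07 for RPS21. As a share of the family's counts, RPS12 went from 1.23 ± 0.0281% to 1.16 ± 0.0301%, and RPL10 from 2.49 ± 0.0356% to 2.59 ± 0.0685%. The groups of shares overlapped for 68 of the 82 genes, lay lower with rhTR11B for 9 and lay higher for 5. No such count was made over all tested genes, so nothing is concluded from it about single genes.

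Several ribosomal proteins have a paralog, and some of these can take the parent's place in the ribosome. The ratio of paralog to parent within a library is free of library scaling. It was computed in FPKM for the 5 pairs in which both genes reached a mean of 1 FPKM. The percentages therefore rest on the length given to each gene, 6110 bases for RPS27L and 584 for RPS27, for example. In CPM, which leaves length out, RPS27L was at 24.5 and RPS27 at 278 with PBS. Differences between the groups do not depend on these lengths. An exact two-sided permutation test of 3 against 3 libraries cannot go below p = 0.1. RPS27L stood at 0.857, 0.837 and 0.834% of RPS27 with PBS and at 0.797, 0.764 and 0.765% with rhTR11B, groups that did not overlap (difference in log2 ratio -0.12, exact permutation p = 0.1, adjusted over the 5 pairs 0.5). RPS27 itself was not called, at a log2 fold change of -0.19 and an edgeR adjusted p of 0.0661.

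RPL22L1, which binds RNA and can replace RPL22, stood at 3.55, 3.44 and 3.35% of RPL22 with PBS and 3.28, 3.58 and 3.83% with rhTR11B (difference in log2 ratio 0.05, exact permutation p = 0.6, adjusted 0.6). RPL26L1 stood at 2.60, 2.70 and 2.62% of RPL26 and then 2.72, 2.61 and 2.83% (0.04, exact permutation p = 0.3, adjusted 0.5). In neither pair were the groups apart. RPL39L stood at 0.127, 0.130 and 0.116% of RPL39 and then 0.0677, 0.0876 and 0.148% (-0.38, exact permutation p = 0.4, adjusted 0.5). RPL7L1, a paralog of RPL7, stood at 13.69, 13.63 and 14.12% of RPL7 and then 14.04, 14.25 and 15.61% (0.08, exact permutation p = 0.2, adjusted 0.5), with the highest value in rhTR11B replicate 3. RPL36A was under 1 FPKM, so its pair was not tested, while its paralog RPL36AL stood at 158 ± 4.03 FPKM with PBS and 138 ± 12.2 with rhTR11B. RPL3L and RPL10L are not analysed here.

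**Figure D4:**
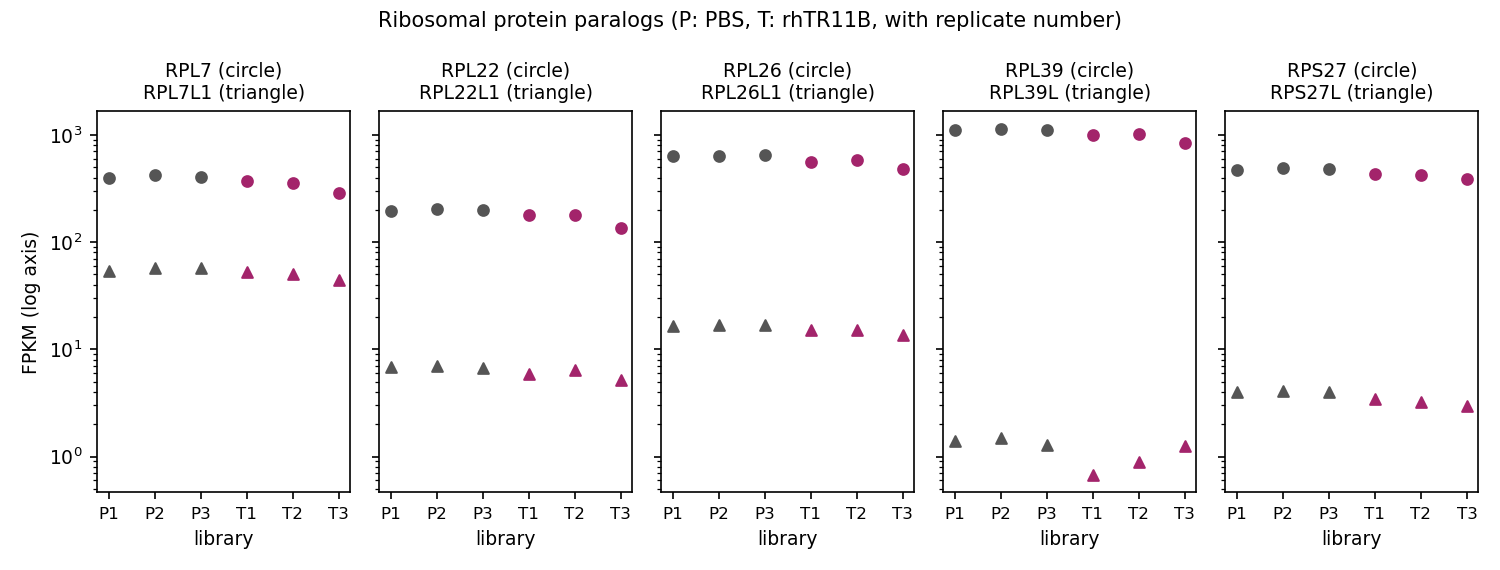
Level in FPKM on a log axis of the parent gene (circles) and its paralog (triangles) of each tested pair in the 3 PBS libraries (P1 to P3) and the 3 rhTR11B libraries (T1 to T3). Each of the 5 paralogs lies below its parent in every library, from RPL7L1 at 13.63 to 15.61% of RPL7 down to RPL39L at 0.0677 to 0.148% of RPL39.

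The starts of parent and paralog are printed here because the pairs differ in the pyrimidine run, in capitals as above.
RPS27: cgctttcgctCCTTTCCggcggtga
RPS27L: gatgccgagcgcagatcgcttgcag
RPL22: cgctcacctcCCTTTCTaactccgc
RPL22L1: ccgtagcttcCTCTCTgctctcgcg
RPL26: gcgtgtagttCTCTTCCCTTTTgcg
RPL26L1: tccaggggtcggcgaacgaaacgcg
They lie at chr1:153990752-153990776 on the plus strand (RPS27), chr15:63157463-63157487 on the minus strand (RPS27L), chr1:6199581-6199605 on the minus strand (RPL22), chr3:170870181-170870205 on the minus strand (RPL22L1), chr17:8383179-8383203 on the minus strand (RPL26) and chr5:172958719-172958743 on the plus strand (RPL26L1, the first of 2 annotated starts). The run was present at both starts of the RPL22 pair, and at the parent's start alone in the other 2 pairs.

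The stalk of the large subunit, which recruits elongation factors, is built from RPLP0, RPLP1 and RPLP2. RPLP0, its base, was at 1380, 1445 and 1485 CPM in the PBS libraries and 1283, 1266 and 1084 in the rhTR11B libraries and missed the threshold (a log2 fold change of -0.25, SE 0.07, edgeR adjusted p = 0.0574). RPLP1 and RPLP2 had log2 fold changes of -0.20 and -0.20, at edgeR adjusted p = 0.0812 and 0.0754. In all 3 every rhTR11B library was below every PBS library.

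Ribosomal proteins outside the ribosome can bind MDM2, the ligase that degrades p53, and so protect p53. Of the 12 such genes listed, 4 fell (RPS14, RPS26, RPS27A and RPS27L), against 0.678% of all tested genes. Their median log2 fold change was -0.23, close to that of the family. RPL5, which with RPL11 and 5S rRNA forms the best-known MDM2-binding complex, was at 770.3, 785 and 799 CPM in the PBS libraries and 724, 691 and 589 in the rhTR11B libraries (a log2 fold change of -0.23, SE 0.07, edgeR adjusted p = 0.0677). RPL11 was at 669.8, 664 and 685 CPM in the PBS libraries and 635, 609 and 512 in the rhTR11B libraries (a log2 fold change of -0.20, SE 0.07, edgeR adjusted p = 0.0997). The other 6 not called were RPL23 (-0.22), RPL26 (-0.23), RPS3 (-0.22), RPS7 (-0.17), RPS25 (-0.20) and RPS27 (-0.19), at edgeR adjusted p from 0.0592 to 0.121. Of 9 genes of the p53 response, 0 were called by edgeR, with a median of 0.04. At an unadjusted p under 0.05, 0 were lower and 1 higher, against 10.3% and 13.8% of all tested genes. GDF15, a secreted p53 target, had the smallest p (log2 fold change 0.30, edgeR adjusted p = 0.0608).

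The 4 ribosomal protein genes that the symbol rule misses had a median of -0.18 and 0 calls by edgeR. All 4 were lower at an unadjusted p under 0.05, against 10.3% of all tested genes. Among them were RACK1, a scaffold on the small subunit (-0.18, edgeR adjusted p = 0.0997), RPL36AL (-0.18, 0.105) and FAU, the source of RPS30 (-0.15, 0.152). In all 4 the rhTR11B libraries lay below the PBS libraries, which held for 14% of all tested genes.

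Genes that share the TOP motif or make ribosomes were set beside the family. Of all tested genes, 0.678% were called lower, 2.92% were called higher and 50% were below 0. Of 18 other TOP mRNAs, mostly translation factors, 1 fell and 0 rose, and the median was -0.16 with 17 below 0. The one was NACA, which binds new proteins at the tunnel exit, at 602 ± 19.2 CPM with PBS and 508 ± 43.9 with rhTR11B (log2 fold change -0.25, edgeR adjusted p = 0.0496). Of 28 ribosome assembly factors, 2 fell and all 28 were below 0, with a median of -0.15. FBL, the methyltransferase of ribosomal RNA, went from 216 ± 6.42 to 179 ± 11.6 CPM (-0.27, edgeR adjusted p = 0.0250). RRS1, which helps bring 5S rRNA into the large subunit, went from 29.6 ± 1.98 to 24.1 ± 1.39 CPM (-0.30, edgeR adjusted p = 0.0429). Of the 14 RNA polymerase I genes tested, POLR1E (-0.26, edgeR adjusted p = 0.0393) and POLR1B (-0.21, 0.0483) fell, and the median was -0.12.

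Of 13 chaperones and importers that carry new ribosomal proteins, 0 were called by edgeR, with a median of -0.12. At an unadjusted p under 0.05, 5 were lower, against 10.3% of all tested genes. PDCD2L (-0.30, edgeR adjusted p = 0.0611), BCCIP (-0.24, 0.0730) and IPO5 (-0.19, 0.0803) had the smallest p. Of 20 genes of the mTOR and MYC pathways, 0 were called by edgeR, with a median of -0.05. At an unadjusted p under 0.05, 6 were lower and 1 higher, against 10.3% and 13.8% of all tested genes. EIF4EBP1, a translation repressor that mTORC1 switches off, was at -0.25 (edgeR adjusted p = 0.0645), RHEB, the activator of mTORC1, at -0.23 (0.0864), and DDIT4, an mTORC1 inhibitor, at 0.22 (0.110). These are mRNA levels and say nothing of the activity of mTORC1. The 77 mitochondrial ribosomal protein genes, which make the separate ribosome of mitochondria, had a median of -0.14. Of these, 2 fell (MRPL18 at -0.30 and MRPS15 at -0.23 by edgeR), against 0.678% of all tested genes. In 42 of the 77 every rhTR11B library lay below every PBS library, against 14% of all tested genes. No gene of the lists in the last 4 paragraphs was called higher, against 2.92% of all tested genes.

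**Figure D5:**
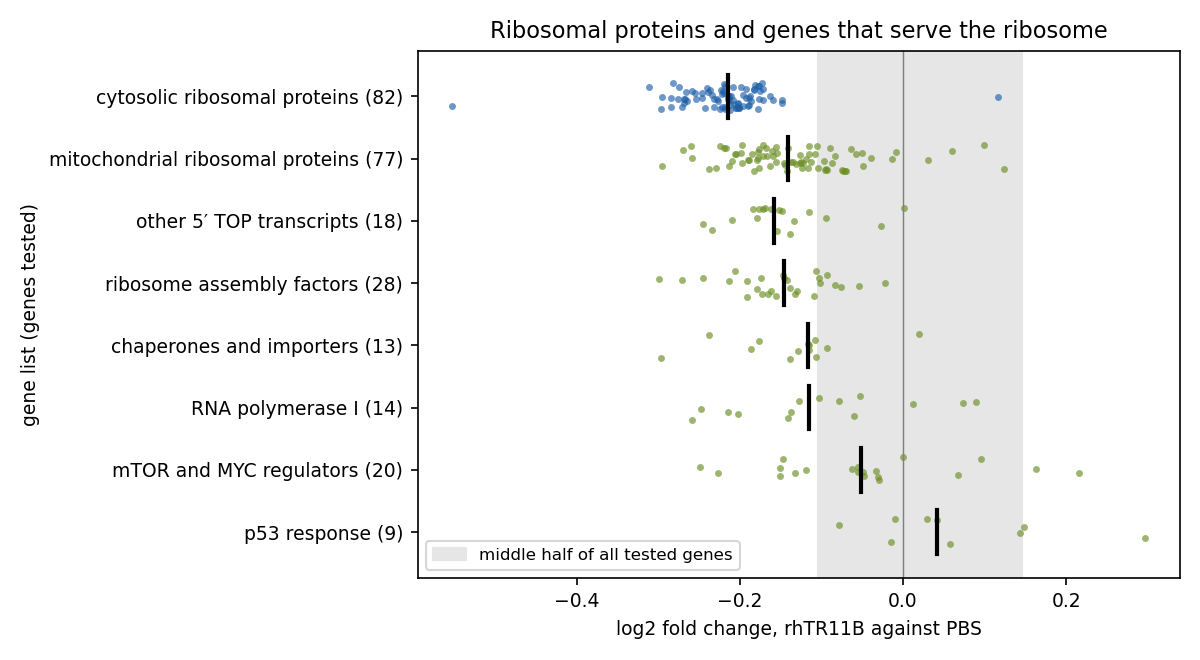
Log2 fold change of rhTR11B over PBS (edgeR) for the genes of 8 lists, with 1 point per gene, a line at each list's median and a grey band from the lower to the upper quartile of all tested genes, -0.10 to 0.15. Of the 8 lists drawn, the cytosolic ribosomal proteins have the lowest median, -0.21, with the other TOP mRNAs at -0.16 and the assembly factors at -0.15.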

How the data were processed

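RNA of 3 PBS and 3 rhTR11B libraries was sequenced. The authors' deposited table of counts per gene symbol was used as it stands. Per the submitters' processing notes, fastp, HISAT, HTSeq, R 3.2.0 and DESeq2 were used on build GRCh38, with no roles given. The authors' deposited FPKM equal counts over length and library total within 0.001 for 100% of values, and gave lengths, levels and paralog ratios. The annotation and the use of strand were not given in the sources used.

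Counts were fitted with edgeR 4.0.16 in R 4.3.3: filterByExpr (minimum count 10), TMM scaling, the quasi-likelihood test on group, and Benjamini-Hochberg adjustment over 13567 genes. CPM of members and listed genes are on TMM-corrected library sizes of the tested genes, and those of cell type markers and all shares on library totals. The script was tested on simulated data. Totals of over 36315751 counts leave counting error small for most genes beside the spread between libraries. Within-group chi-square per degree of freedom was 4.33 to 19.9, more than counting noise, so no library was treated as a repeat deposit of another.

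The members, lists, tests and named-gene rule were chosen with earlier results of these data known. Named were all members at an adjusted p under 0.05, the 5 most negative and the 5 least negative, the 5 with the highest FPKM, and the stalk, paralog, ubiquitin-fusion and MDM2-binder genes. Of each other list, called genes or else the 3 with the smallest p were named. Of these, 2 genes are not reported here by name. RPL12, RPL34, RPL37A and RPL35A were added after their values were seen, for lying just past the threshold or for overlapping groups. Alternatives covered scaling, filters, DESeq2 1.42.0, limma 3.58.1 on counts and on log2(FPKM + pseudocount), length, a replicate block, and leaving out each library.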

Additional observations from a re-analysis of the deposited data

How the results depend on the processing

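The median log2 fold change of the 82 ribosomal protein genes was below 0 in each of the 19 alternatives, at -0.25 to -0.15, the ends being the fits that left out rhTR11B replicate 1 and rhTR11B replicate 3, and no alternative called a gene of the family higher. The number called lower, 14 in the report, was less stable. It was 64 with the DESeq2 Wald test, 64 with no low-count filter, 5 with a mean of at least 5 CPM (80 genes tested) and 66 at an adjusted p under 0.1. With limma on log2(FPKM + 1) it was 0 with a mean of at least 1 FPKM and 0 with no filter, and on log2(FPKM + 0.1) it was 0. At an unadjusted p under 0.05 these gave 80, 57 and 80, and the share of all tested genes at that threshold was not computed for them. Leaving out 1 library at a time gave 0 to 58. Over all tested genes, the same settings called 359, 483, 26, 556, 21, 0 and 22 genes lower, against 92 in the report. These settings tested between 10371 and 19876 genes. As shares of the genes tested, the calls were 1.81, 2.43, 0.251, 4.1, 0.194, 0 and 0.203%, against 0.678% in the report. Leaving out 1 library called 3 to 427 genes lower, or 0.0218 to 3.1%. Other scalings, limma-voom and length offsets gave 12 to 19 in the family, and 85 to 159 over all tested genes. Same-numbered libraries did not resemble each other (correlation of deviations -0.105 to 0.0506, and 1 of 6 correlating best with its own number). With 3 libraries per group this cannot exclude a pairing, and the labels do not state one. The fit with the replicate block called 23 of the family lower. In all it called 252 genes lower and 774 higher, against 92 and 396 without the block. With 1 library left out, RPL36A log2 fold change ran from -0.016 (without rhTR11B replicate 2) to 0.20, and the log2 ratio RPL22L1/RPL22 from -0.0081 (without rhTR11B replicate 3) to 0.10, and both thereby changed sign. The causes of these differences were not tested. Depth limits RPL36A and RPL39L, which had at most 41 counts in any library.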
